A study of Danio rerio with 8 samples.

Results

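The JNK and p38 kinase cascade was followed through 10 zebrafish genes, chosen by name with earlier results of these data known. Of these, 8 were matched to the array. They are map3k4 at the top of the cascade, the MAP kinase kinase genes map2k4a and map2k6, the JNK gene mapk8b, and the p38 genes mapk11, mapk12a, mapk14a and mapk14b. Together they had 11 probe sets with a single gene symbol, out of 10795 such probe sets, for 8793 genes, on the whole array. The other 2 genes, map2k7 and mapk9, had no probe set under their symbol or Entrez number in the annotation used here. As mapk8b was too dim to be tested, no JNK gene among the members could be tested. The JNK branch is thus covered only in part, through kinases upstream of JNK.

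Stress-activated MAP kinases work in tiers. A MAP3K such as MAP3K4 phosphorylates a MAP2K, which phosphorylates JNK or p38, and in mammals MAP2K4 can activate both JNK and p38, while MAP2K6 activates p38 and MAP2K7 activates JNK. In mammals GADD45 proteins bind MAP3K4 and activate it. In the early zebrafish embryo p38 and JNK signalling has been tied to axis formation, cell movements and stress-induced death. The arrays measured transcripts and not phosphorylated kinases.

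Embryos had received 3 nl of a 0.3 mM morpholino, an antisense oligonucleotide, at the stage of 1 or 2 cells, either against prmt6 (MO) or its control (cMO), and were collected at 6 hours post fertilization (hpf). The prmt6 gene encodes protein arginine methyltransferase 6. The MO embryos had been sorted by appearance into severe, mild and normal subtypes, so subtype was an outcome of the injection and not a separate treatment. Control and severe embryos were each measured on 3 arrays, and mild and normal-looking embryos on 1 array each, from RNA of whole embryos. The titles call the replicates biological but do not say whether clutches differed, so p-values measure only the spread between these samples. No strain, and no number of embryos per array, was given in the sources used here.

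Values are log2 signals, and the number of arrays limits their precision. Array medians lay between 6.47 and 6.8. Control 3 stood apart from controls 1 and 2 on the first 2 principal components, and severe 3 from severe 1 and 2 on the second only. On the first (69.3% of the variance) severe 3 scored 44.4, severe 2 scored 43.1 and severe 1 scored 61.8. On the second principal component (15.8% of the variance) positive scores went to control 3, severe 3 and both unreplicated arrays, and negative ones to the other 4. The labels name no batch. Spearman correlations across probe sets were 0.978 between controls 1 and 2 and 0.962 between control 3 and either of them. Among severe arrays they differed less, at 0.965 between severe 1 and 2, 0.958 between severe 1 and 3 and 0.955 between severe 2 and 3. The single prmt6 probe set was higher in severe embryos by 1.57 (SE 0.14, limma adjusted p = 0.000115). It read 9.67, 9.87 and 9.56 in controls and 11.30, 11.10 and 11.41 in severe embryos. The mild array read 11.13 and the normal array 11.22, so every MO array lay above every control. With 1 array each, the normal difference did not pass, and the mild one passed but not under every scaling tried. A morpholino need not lower its target RNA, so these values check neither knockdown nor labels.

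Of the 11 member probe sets, 6 passed the filter on dim probe sets (mean at or above log2 5.585), and these covered map3k4 (with 2 probe sets), map2k4a, map2k6, mapk14a and mapk14b. The remaining 5 were at or near the array background, log2 5.10, the 95th percentile of 17 negative control probe sets. They were those of mapk8b, mapk11 and mapk12a and 2 further probe sets of mapk14b. So 5 of the 8 genes could be tested. Signal levels of different probe sets, as opposed to their changes, are not compared with each other here.

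**Figure D1:**
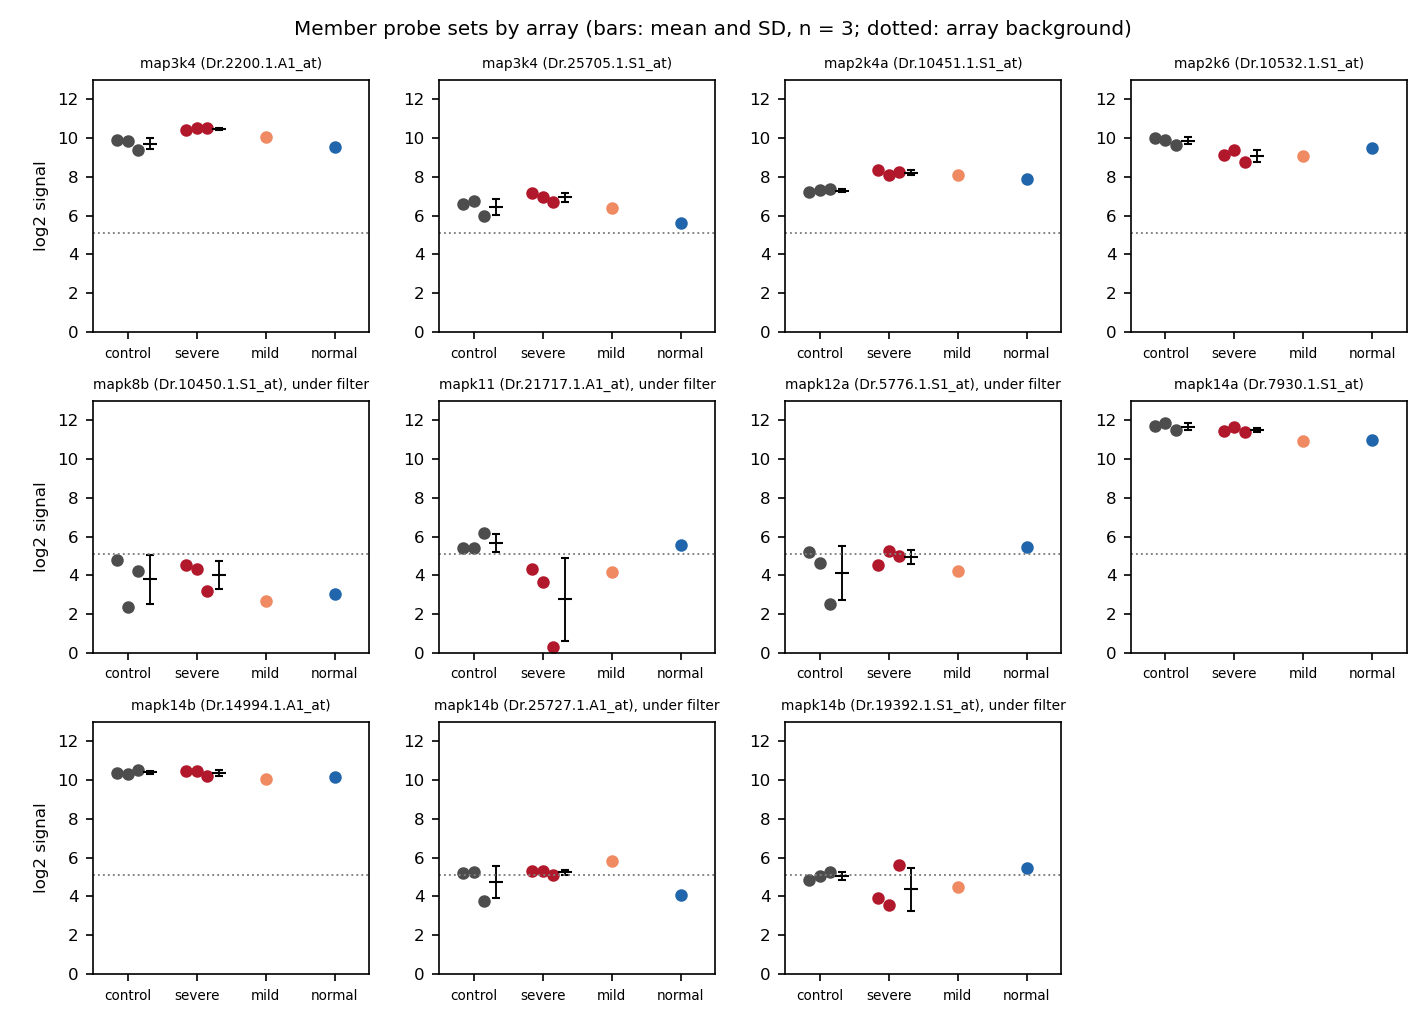
Log2 signal (y axis) of each of the 11 member probe sets on the 8 arrays (x axis, by group), with 1 point per array, bars for the mean and SD of 3 arrays, and a dotted line at the array background of 5.10. The severe arrays lie above the controls for map2k4a and for the brighter map3k4 probe set and below them for map2k6, while mapk8b lies under the dotted line on all 8 arrays.

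In severe embryos the brighter of the map3k4 probe sets and map2k4a were higher and map2k6 was lower. The dimmer map3k4 probe set, mapk14a and mapk14b did not pass the test. In limma, 3 of the 6 tested member probe sets passed an adjusted p of 0.05, with 2 higher and 1 lower, against 38.6% of all 9301 tested probe sets (21% higher and 17.6% lower). The same 3 did not overlap between the severe and control arrays, as was so for 52.8% of all tested probe sets (29.4% higher and 23.4% lower). The members' share is thus near that of the array as a whole. The median log2 difference of the 6 was 0.24, beside 0.11 over all tested probe sets. In whole embryos, fewer cells of a type and less RNA per cell cannot be told apart.

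The gene map3k4 encodes the MAP3K of the cascade. Its brighter probe set read log2 9.88, 9.87 and 9.41 in controls 1 to 3 and 10.42, 10.50 and 10.52 in severe 1 to 3. The mild array read 10.06 and the normal array 9.55. Severe and control arrays did not overlap, the mild array lay between them, and the normal array lay within the control range. The severe mean of 10.48 ± 0.05 (SD, n = 3) was 1.69-fold the control mean of 9.72 ± 0.27 (SD, n = 3), a log2 difference of 0.76 (SE 0.16, 95% interval 0.39 to 1.12, limma adjusted p = 0.00595). Scaling on 18 hybridisation control probe sets took the median over all tested probe sets from 0.11 to -0.17, and there map3k4 was 0.47 higher and did not pass (limma adjusted p = 0.189, with 0.00242 to 0.189 over 18 alternatives).

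The dimmer map3k4 probe set read 6.58, 6.74 and 5.97 in controls and 7.17, 6.95 and 6.69 in severe embryos, with 6.39 on the mild and 5.61 on the normal array. Severe 3 fell between controls 1 and 2, so the groups overlapped. Its log2 difference of 0.51 (95% interval -0.16 to 1.17) did not pass (limma adjusted p = 0.204). The interval of the dimmer probe set includes the value of the brighter one.

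The gene map2k4a encodes MAP2K4, the kinase that in mammals feeds both branches. It read 7.21, 7.32 and 7.35 in controls and 8.33, 8.09 and 8.24 in severe embryos. On the mild array it read 8.11 and on the normal array 7.87. Every MO array lay above every control array, and the normal array was the lowest of the MO arrays. The share of all probe sets with such an order was not counted, and the normal difference did not pass. The severe mean of 8.22 ± 0.12 was 1.91-fold the control mean of 7.29 ± 0.07 (SD, n = 3 each), a log2 difference of 0.93 (SE 0.20, 95% interval 0.48 to 1.39, limma adjusted p = 0.0065). Scaled on hybridisation controls it was 0.65 higher and did not pass (limma adjusted p = 0.157, with 0.00362 to 0.157 over 18 alternatives).

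The gene map2k6 encodes MAP2K6, a kinase of the p38 branch. It read 10.02, 9.88 and 9.67 in controls and 9.12, 9.37 and 8.76 in severe embryos. On the mild array it read 9.10 and on the normal array 9.48. Every MO array lay below every control array, and the normal array was the highest of the MO arrays. Here too the share of all probe sets with such an order was not counted, and the normal difference did not pass. The control mean was 9.85 ± 0.17 and the severe mean 9.08 ± 0.30 (SD, n = 3 each), and the transcript was 1.71-fold lower in severe embryos (log2 difference -0.77, SE 0.19, 95% interval -1.20 to -0.34, limma adjusted p = 0.0121). Without control 1 the difference was -0.69 and just missed the threshold (limma adjusted p = 0.0526, with 0.00239 to 0.0526 over 18 alternatives), and scaled on hybridisation controls it was -1.05 and passed.

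The 2 MAP2K transcripts moved in opposite directions on the same arrays. Scaling of a whole array cannot shift the difference between them, though it can shift the change of each. The log2 difference between map2k4a and map2k6 on each array was set relative to its control mean. The controls then lay at -0.25, 0.01 and 0.24. The severe arrays lay at 1.78, 1.29 and 2.04, the mild array at 1.58 and the normal array at 0.95. No test was made of this contrast, because it was formed after the values were seen, from 1 transcript called higher and 1 called lower. Its separation of severe from control arrays follows from that choice.

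The p38 alpha genes mapk14a and mapk14b encode the terminal kinases of the p38 branch. The mapk14a probe set read 11.72, 11.84 and 11.49 in controls and 11.47, 11.64 and 11.40 in severe embryos. The groups overlapped, and the difference of -0.18 (95% interval -0.48 to 0.12) did not pass (limma adjusted p = 0.323). The mild array read 10.95 and the normal array 11.01, both below all 6 replicated arrays. How many probe sets overall had such an order was not counted. Control 3 and severe 3, which had positive scores on the second principal component as these arrays did, were the lowest of their groups.

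The bright mapk14b probe set read 10.37, 10.34 and 10.50 in controls and 10.46, 10.48 and 10.20 in severe embryos, with 10.05 on the mild array and 10.17 on the normal array. Its severe difference was -0.02 (95% interval -0.33 to 0.28, limma adjusted p = 0.907). As with mapk14a, the lowest 2 arrays were the mild and normal ones. A difference of 1.69-fold, the size seen for the brighter map3k4 probe set, lies outside the severe intervals of these 2 probe sets. As a rise it lies within the interval of a dim mapk14b probe set (-0.61 to 1.60, in the fit without the filter). As a fall it lies within that of the other dim mapk14b probe set (-1.98 to 0.63, same fit). A rise of that size also lies within the interval of a probe set annotated to both srpk1a and mapk14a (0.36 to 1.05). That probe set was counted for neither gene and is described further below.

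**Figure D2:**
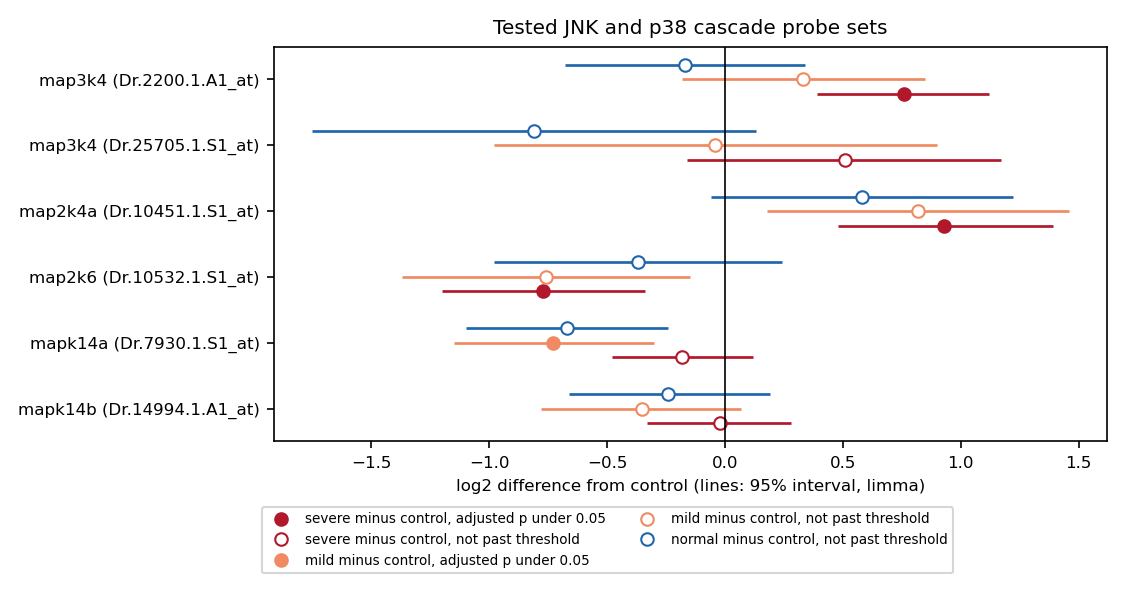
Log2 difference from control (x axis) for the 6 tested member probe sets (y axis) in severe, mild and normal embryos, with 95% intervals from limma and filled points where the adjusted p was under 0.05. In severe embryos map3k4 (0.76) and map2k4a (0.93) are higher and map2k6 (-0.77) is lower, and in mild embryos mapk14a (-0.73) is lower.

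The dim members allow little to be said. The JNK gene mapk8b lay between 2.39 and 4.82 over the 8 arrays, under the background on each of them, so it was not well above background in any group. The p38 gamma gene mapk12a lay between 2.55 and 5.45 and exceeded the background on 3 of 8 arrays. Of the dim mapk14b probe sets, 1 lay between 3.78 and 5.85 and the other between 3.55 and 5.64, and in both the severe and control arrays overlapped.

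The p38 beta gene mapk11 was the dim member whose groups did not overlap. It read 5.42, 5.42 and 6.20 in controls, all above the background of 5.10, and 4.34, 3.64 and 0.32 in severe embryos, all under it. It read 4.18 on the mild array and 5.58 on the normal array. The control mean of 5.68 lay 1.49-fold above the background, and the measured severe mean was 2.77 (SD 2.14, n = 3). With controls this near the background and all severe arrays under it, no firm minimum fold can be given. The mapk11 probe set lay under the filter on dim probe sets. In the fit of all probe sets without that filter it passed narrowly (limma adjusted p = 0.0477), where 23.2% of 15502 probe sets passed. Of the probe sets under the filter, 11.4% had all severe arrays below all controls.

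In mild embryos 1 of the 6 tested member probe sets passed, against 13.5% of all tested probe sets (4.69% higher and 8.78% lower). This was mapk14a, which was 1.66-fold lower than the control mean (log2 difference -0.73, SE 0.19, 95% interval -1.15 to -0.30, limma adjusted p = 0.0369). With 1 mild array, its spread was taken to equal that of the other groups. The call was lost in 7 of 17 alternatives, including median centring (-0.51, limma adjusted p = 0.157) and the fits without control 1 (adjusted p = 0.103), control 2 (0.111) or severe 2 (0.055). The other mild values were 0.82 for map2k4a (limma adjusted p = 0.0912), -0.76 for map2k6 (0.0998), 0.33 for the brighter map3k4 probe set (0.366), -0.04 for its dimmer one (0.962) and -0.35 for mapk14b (0.252). The map2k4a value passed under quantile normalization and median centring, and the map2k6 value without severe 3 (limma adjusted p = 0.0478, 0.0446 and 0.0388).

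In normal-looking MO embryos 0 of the 6 tested member probe sets passed in limma, and 0.043% of all tested probe sets did. At an unadjusted p under 0.05 there was 1 member probe set, beside 9.3% of all tested probe sets. It was that of mapk14a, with a log2 difference of -0.67 (95% interval -1.10 to -0.24, limma adjusted p = 0.378). The value for map2k4a was 0.58, for map2k6 -0.37, for mapk14b -0.24, and for map3k4 -0.17 and -0.81. The severe, mild and normal comparisons share their control arrays, so their values are not independent of each other.

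The subtypes were also compared with each other directly. Between severe embryos and the normal array, 1 of 6 member probe sets passed, against 21.7% of all tested probe sets (11.3% higher). The brighter map3k4 probe set was 1.91-fold higher in severe embryos (log2 0.93, SE 0.23, 95% interval 0.42 to 1.44, limma adjusted p = 0.0238), and all 3 severe arrays exceeded the normal array. The dimmer map3k4 probe set was 1.32 higher (95% interval 0.38 to 2.26) and just missed the threshold (limma adjusted p = 0.0505). The first call was lost without severe 2 (limma adjusted p = 0.0577) and when scaled on hybridisation controls (0.11). The value for map2k4a was 0.35 (95% interval -0.29 to 1.00) and for map2k6 -0.40 (95% interval -1.01 to 0.21), so neither was shown to differ between severe and normal-looking embryos.

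Between severe embryos and the mild array, 0 of the 6 member probe sets and 0% of all tested probe sets passed in limma. At an unadjusted p under 0.05 there was 1 member probe set, beside 10.2% of all tested probe sets. It was that of mapk14a, with a log2 difference of 0.55 (95% interval 0.12 to 0.98, limma adjusted p = 0.481). Without control 3 and severe 3 together, a setting chosen after the data were seen, 3 member probe sets passed, all higher in severe embryos. Of all probe sets 2640 passed there. The control and severe arrays that remain all had negative scores on the second principal component, while the mild array had a positive one. Subtype and this difference between arrays cannot be told apart there.

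The rest of the pathway was described from lists of genes, each gene by its brightest probe set. Outside the members, 34 of 107 listed genes could be tested. A list of 6 further JNK and p38 pathway kinases, such as mapk8a and mapk13, had no probe set named for any of them. In severe embryos 13 rose and 5 fell, so that 52.9% were called, beside 40.5% of all 6192 tested genes (23.8% higher and 16.7% lower). Their median log2 difference was 0.25, beside 0.14 over all tested genes. The 13 include mef2d, which passed the filter on dim probe sets through the arrays where it was high. These lists were chosen with earlier results of these data known, so the counts are a description and not a test of the pathway. Scaled on hybridisation controls, 7 rose and 5 fell. Without control 1 the genes that fell numbered 1, without control 2 they numbered 2, and without control 3 or severe 2 they numbered 3, with 11 or 12 that rose. In mild embryos 6 were higher and 2 lower, or 23.5% beside 13.9% of all genes (5.81% higher and 8.04% lower). In normal-looking embryos 0 passed in limma, beside 0.0323% of all genes.

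Upstream of the MAP2Ks, 4 of 8 tested genes rose in severe embryos and 0 fell, with a median of 0.49. Scaled on hybridisation controls, 1 rose and 1 fell, with a median of 0.2. The severe counts of this list and those below stand beside 23.8% of all tested genes higher and 16.7% lower, with a median of 0.14. The kinase gene taok1b, whose product activates MAP2Ks of the p38 branch in mammals, rose from 7.55 ± 0.32 to 9.26 ± 0.21 (SD, n = 3 each), or 3.28-fold (limma adjusted p = 0.000592). The kinase gene map4k5 rose by 1.02, and tab1 and tab3, which encode partners of the kinase TAK1, by 0.75 and 0.58. A second tab1 probe set differed by 0.55 and missed the threshold (limma adjusted p = 0.167). The 3 calls were lost when scaled on hybridisation controls (limma adjusted p = 0.115, 0.32 and 0.417), where taok1b was still 1.43 higher (limma adjusted p = 0.0125). Fits with single arrays left out were not read out for tab1. The TAK1 gene map3k7 itself read 0.39 and did not pass (limma adjusted p = 0.277). In mild embryos 0 of these 8 passed in limma.

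The gadd45 genes, whose products activate MAP3K4 in mammals, include gadd45aa, which lay between 6.39 and 6.78 in controls and between 9.05 and 9.96 in severe embryos. The mild array read 9.30 and the normal array 8.16, so every MO array lay above every control. The share of all genes with such an order was not counted, and the normal difference of 1.54 did not pass. In severe embryos gadd45aa rose by 2.79 on the log2 scale (limma adjusted p = 0.000149). Of 4 tested family members 2 rose and 1 fell. The riser gadd45bb was 0.83 higher, and gadd45ba was 0.47 lower on the log2 scale (difference -0.47), a call that 9 of 18 alternatives ended. A second gadd45ba probe set differed by -0.70 and missed the threshold (limma adjusted p = 0.0601).

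Downstream, 3 of 4 tested kinase genes rose in severe embryos. These were the genes of the MAP kinase-interacting kinases, which phosphorylate the translation factor eIF4E and are activated by p38 and ERK. The mknk1 probe set rose from 8.74 ± 0.43 to 10.43 ± 0.22 (SD, n = 3 each), or 3.21-fold (limma adjusted p = 0.000678), and mknk2a rose from 9.01 ± 0.29 to 10.65 ± 0.19, or 3.11-fold (limma adjusted p = 0.000265). On the mild array mknk2a was 1.70 higher (limma adjusted p = 0.00548) and mknk1 1.21 higher (0.0396). The mild call of mknk2a was lost when scaled on hybridisation controls (limma adjusted p = 0.0748). That of mknk1 was lost in 9 of 17 alternatives (limma adjusted p up to 0.351 over all 17). These included the same scaling and the fits without control 1, control 2, severe 1 or severe 2. The mknk2b value of 0.65 passed (limma adjusted p = 0.00802), but not when scaled on hybridisation controls (0.313). Its other 2 probe sets read 0.71 and 0.21 without passing. The p38 substrate gene mapkapk2a read 0.16 without passing (limma adjusted p = 0.281), while a second probe set of it was 0.58 higher (limma adjusted p = 0.00791).

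Among phosphatases that act on JNK and p38, 3 of 9 tested genes fell in severe embryos and 0 rose, with a median of -0.26. The gene ppm1da, a relative of mammalian Wip1, a p38 phosphatase induced by p53, had a control mean of 11.67 ± 0.06 and a severe mean of 11.19 ± 0.11 (SD, n = 3 each), which passed (limma adjusted p = 0.0111), and a second probe set differed by -1.01 (limma adjusted p = 0.000346). Without control 1 the first of these missed the threshold (limma adjusted p = 0.0586). The mild array was lower by 0.90 for ppm1da (log2 difference -0.90, limma adjusted p = 0.0108), a call lost under median centring (0.0662). The dual-specificity phosphatase gene dusp4 differed by -0.93 (limma adjusted p = 0.0242) and ppm1ba by -0.50 (0.0323). Leaving out any 1 control array or severe 2 ended the calls of dusp4 and ppm1ba, and leaving out severe 3 ended that of ppm1ba. A second ppm1ba probe set differed by -0.29 and missed the threshold (limma adjusted p = 0.45).

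Of 3 tested scaffold genes, sh3rf1, which encodes the JNK scaffold POSH, rose by 1.28 in severe embryos (limma adjusted p = 0.00408), but not when scaled on hybridisation controls (adjusted p = 0.0769). On the mild array it read -0.22 without passing. The arrestin genes arrb2a (0.29) and arrb2b (-0.59) did not pass.

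Of 6 tested transcription factor genes whose products are targets of these kinases, 3 rose and 1 fell. The AP-1 gene jun rose by 1.35 (limma adjusted p = 0.00129) and was 1.23 higher on the mild array (limma adjusted p = 0.0283). The mild call was lost in 4 of 17 alternatives, which were hybridisation-control scaling, the fits without control 1 or control 2, and controls averaged (limma adjusted p up to 0.304). A second jun probe set read 0.95 in severe embryos without passing (limma adjusted p = 0.0735). The p38 target gene mef2d read 5.31, 5.13 and 4.54 in controls and 7.51, 7.15 and 6.87 in severe embryos. It is counted among the 3, but its controls lay at or near the background of 5.10 and it passed the filter through the arrays where it was high, so no fold is given. The stress-response gene atf3 was 1.27 higher (limma adjusted p = 0.0308), but not when scaled on hybridisation controls (0.99, adjusted p = 0.175). For atf3 only the alternative scalings were read out, and not the fits with single arrays left out. The gene cebpb, encoding a bZIP factor, fell from 11.13 ± 0.12 in controls to 10.36 ± 0.09 in severe embryos (limma adjusted p = 0.00157) and read 0.01 on the mild array.

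**Figure D3:**
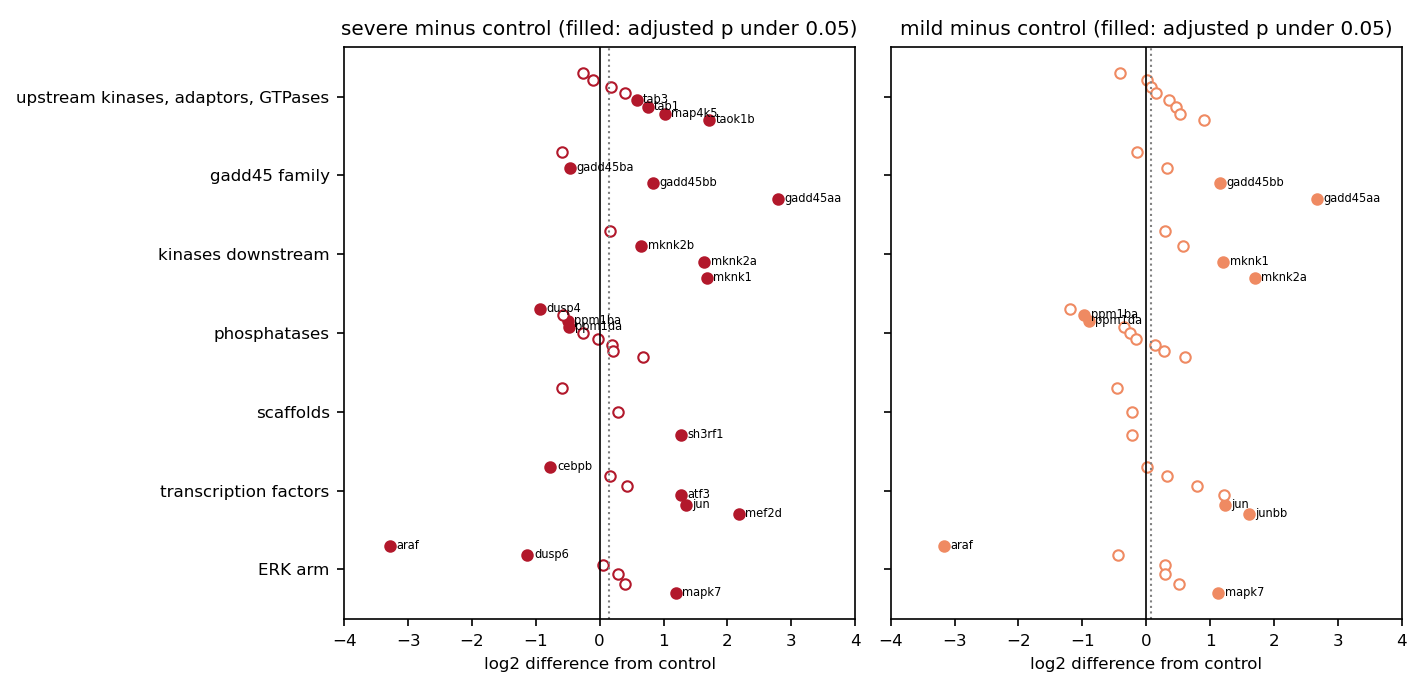
Log2 difference from control (x axis) of each tested pathway gene outside the members, by list (y axis), in severe embryos (left) and on the mild array (right), with filled, named points where the limma adjusted p was under 0.05 and a dotted line at the median of all tested genes. In severe embryos 4 upstream genes and 3 downstream kinase genes lie to the right of 0 among the filled points, and 3 phosphatase genes to the left.

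A list for the ERK cascade, the growth-factor branch of the MAP kinases, was set beside the stress branches. The list also holds mapk7, the gene of ERK5, which is not part of that cascade and was the 1 gene that rose. Of 6 tested genes 1 rose and 2 fell in severe embryos, with a median of 0.17. Over all tested genes 40.5% were called (23.8% higher and 16.7% lower). The Raf kinase gene araf read 9.70, 9.53 and 9.62 in controls and 6.31, 6.25 and 6.45 in severe embryos. The mild array read 6.44, within the severe range, and the normal array 8.81, below the controls. The log2 difference was -3.28 in severe embryos (SE 0.20, limma adjusted p = 3.26e-05) and -3.17 on the mild array (limma adjusted p = 0.00201), and both passed in every alternative run. The ERK5 gene mapk7 rose by 1.19 (limma adjusted p = 0.00295) and the ERK phosphatase gene dusp6 fell by 1.13 (limma adjusted p = 0.000811). The ERK1 gene mapk3 read 0.05 by its leading probe set (limma adjusted p = 0.828), while another of its probe sets read -0.79 (limma adjusted p = 0.00438).

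By the pattern over the 8 arrays, the named genes most like map3k4 were zbtb22b, cmtr1 and klhl11 (Pearson r = 0.991, 0.988 and 0.987). Those most like map2k4a were zp3f.1, zfand1 and b3galt2 (0.991, 0.990 and 0.987), and those most like map2k6 were eml1, hcfc1b and kalrnb (0.983, 0.974 and 0.970). These are the highest of 6823 probe sets compared, the arrays fall into distinct groups, and the values are a description only.

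Markers of embryonic layers and of maternal RNA moved with the same groups. The counts below stand beside 23.8% of all tested genes higher and 16.7% lower in severe embryos. The summed linear signal of 15 enveloping layer markers was 51441 to 70374 in controls, 7533 to 14612 in severe embryos, 14678 on the mild and 51652 on the normal array, and 13 of 15 fell in severe embryos. Of 11 maternal transcripts 10 rose, with sums of 16007 to 19493, 35966 to 43706, 34365 and 20562 in the same order. That count was 9 under quantile normalization, 8 under median centring and 6 when scaled on hybridisation controls. Of 10 mesendoderm markers 7 fell (18881 to 22979, 5734 to 11155, 16399 and 21931). Of 7 tested yolk syncytial layer markers 6 fell and 1 rose, and over 8 on the array the sums were 7305 to 13652, 1539 to 3242, 3577 and 8193. Of 6 germ-cell markers 3 rose and 1 fell (5117 to 5367, 7227 to 8686, 6507 and 5992). None of these markers was at or below background on all arrays. Some that fell, such as anxa1b and apoc2, were under background on every severe array. They passed the filter through the arrays where they were high. The lists were chosen with earlier results of these data known, so the counts are a description and not a test of these layers. Their part in the values of the kinase genes was not tested.

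**Figure D4:**
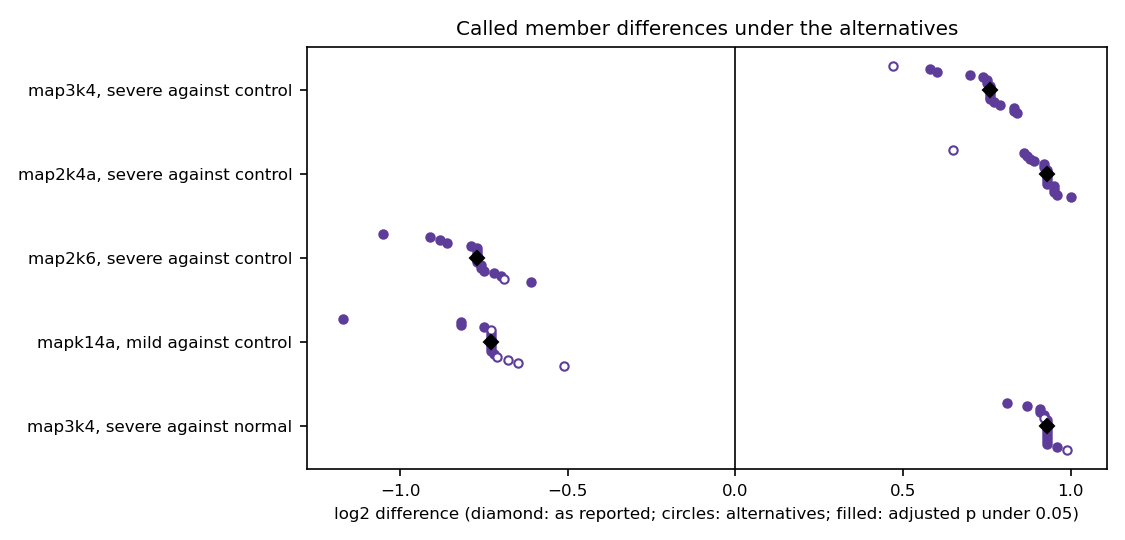
Log2 differences (x axis) of the 5 member results that passed the threshold (y axis) as reported (diamonds) and under each alternative (circles, filled where the limma adjusted p was under 0.05). All circles of a result lie on the same side of 0, and the open circles for map3k4 (0.47) and map2k4a (0.65) against control are the scaling on hybridisation controls.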

How the data were processed

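RNA of whole embryos was measured on 8 Affymetrix zebrafish arrays with 15617 probe sets. The deposited values are log2 signals, 1 per probe set and array. Per the submitters' processing notes, the authors made them with MAS5 (version not stated). That method corrects each probe by its mismatch partner, so values near background scatter widely. The values show scaling of every array to a mean of 500 after trimming 2% at each end.

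Symbols came from the platform annotation, brought up to date by Entrez number in 10711 cases. Leaving out 115 array controls, 15502 probe sets remained, 10795 with 1 symbol, 135 with several and 4572 with none. No genome was used here, and no sequences or coordinates are given.

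Probe sets with a mean at or above the 40th percentile were kept (9301). Group means were fitted over all 8 arrays with limma 3.58.1 (eBayes with trend, 4 residual degrees of freedom) in R 4.3.3, with Benjamini-Hochberg adjustment over all tested probe sets and a threshold of 0.05. Scripts were tested on simulated data. All members were named, and per pathway list the 3 genes with the smallest p in severe embryos. Further pathway genes and probe sets (tab1, atf3, map3k7, mapkapk2a, mapk3) were named after their values were seen. Members and lists were chosen with earlier results of these data known. Figures used matplotlib 3.10.9.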

Additional observations from a re-analysis of the deposited data

Results flagged for a closer look

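The map3k4 value differed between severe embryos and the 1 array of normal-looking MO embryos, a comparison in which 21.7% of all tested probe sets passed. The call was lost without severe 2 and when scaled on hybridisation controls. The brighter probe set was 0.93 higher on the log2 scale in severe embryos than on the normal array (limma adjusted p = 0.0238), higher in 3 of 3 severe arrays.

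A probe set outside the 11 described is annotated to both srpk1a and mapk14a, so it was counted for neither gene. It read 9.19, 8.92 and 9.26 in controls and 9.82, 9.76 and 9.91 in severe embryos, with 9.78 on the mild and 9.33 on the normal array. It was 0.70 higher in severe embryos (SE 0.15, limma adjusted p = 0.00669), while the probe set of mapk14a alone read -0.18.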

How the results depend on the processing

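Severe against control kept 3 member calls, or came within 1.5 times of that count (2 to 4), under all alternatives except scaling on hybridisation controls, which left 1 (map2k6). With each replicate left out in turn it was 2 to 3, and with a replicate block, control and severe arrays only, 3. Same-numbered control and severe arrays did not all deviate together (r = 0.337, -0.0723 and 0.338), so the numbers were not taken to pair samples. The block raised the calls among all probe sets from 3587 to 4413.

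Mild against control (1 call) gave 2 under quantile normalization, 0 with no filter and 0 in eBayes without trend. Median centring also gave 1 call, but of map2k4a in place of mapk14a. Leaving out single replicates gave 0 to 2. Severe against normal (1 call) gave 2 under quantile normalization, 2 under median centring, 2 in eBayes without trend and 0 when scaled on hybridisation controls, and 0 to 2 with single replicates left out. Normal against control and severe against mild stayed at 0 calls under every alternative but 1 described next.

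Chosen after the data were seen, replicates 1 and 2 of control and severe with mild and normal gave 3 calls for mild against control, 1 for normal against control (mapk14a), 3 for severe against mild and 3 for severe against normal. Averaging controls 1 and 2 as 1 array gave 0 for mild against control. No called member value changed sign in any alternative. Over all probe sets, scaling on hybridisation controls moved the calls in severe embryos from 3587 to 2377. Calls on the mild array (1253) were 670 without control 1, 615 without control 2, 1893 without severe 3, 3037 with replicates 1 and 2 and 672 with controls averaged, and those of severe against normal (2017) ranged from 590 (hybridisation controls) to 4797 (replicates 1 and 2). Calls of normal against control (4) ranged from 0 to 1094, and of severe against mild (0) from 0 to 2640, both highest with replicates 1 and 2. Pathway genes called on the mild array (8) ranged from 3 to 15, and those called in severe embryos (18) from 12 to 20. The filter left 5 of 11 member probe sets untested, which bounds what is said of mapk8b, mapk11 and mapk12a.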

Other observations

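Control 3, severe 3 and both unreplicated arrays had positive scores on the second principal component. Set against control 3 alone, with no test possible, the brighter map3k4 probe set was 1.11 higher on severe 3, 0.64 higher on the mild array and 0.14 higher on the normal array (log2). The map2k4a values were 0.90, 0.77 and 0.52 in the same order, and those of map2k6 were -0.91, -0.57 and -0.19. The values of mapk14a were -0.09, -0.54 and -0.48, and those of mapk14b -0.29, -0.45 and -0.33. Each of these 5 probe sets thus kept the sign of its difference from the mean of all 3 controls, except map3k4 on the normal array, where that difference was -0.17. The dimmer map3k4 probe set read 0.72, 0.42 and -0.35 against control 3, and its mild value against the mean of all controls had the other sign (-0.04).

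The phosphatase genes ppm1da and ppm1ba were, like mapk14a, lowest on the mild and normal arrays. The ppm1da probe set read 10.77 and 10.75 there, between 11.07 and 11.29 in severe embryos and between 11.63 and 11.74 in controls. The ppm1ba probe set read 9.16 and 9.26, between 9.45 and 9.78 in severe embryos and between 9.99 and 10.30 in controls. This likeness was seen in the values and not sought beforehand, and the share of all probe sets with such an order was not counted. Other tested phosphatase genes differed among themselves. The ppm1db gene was also lowest on the mild and normal arrays. In contrast, dusp1 was highest on the mild array (12.22) and ppm1bb on the normal array (10.87). Neither ppm1da nor ppm1ba passed in normal against control, and both arrays are unreplicated.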
